A study of Mus musculus with 34 samples.

Results

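The stem cell niche of the mouse testis was followed here through 10 genes chosen by name, of 33370 gene names on the array and of 16398 that carry a symbol. They were 5 secreted or membrane-bound signals (Gdnf, Cxcl12, Kitl, Fgf2, Csf1), 4 receptors or co-receptors (Gfra1, Ret, Cxcr4, Kit) and Etv5, a transcription factor that acts downstream of GDNF and FGF2. Each gene was read with the probe that had the highest mean signal over all arrays. A level is the processed signal on the log2 scale, set relative to the 75th percentile of its array, so 0 marks that percentile and 1 unit is a doubling. Levels of different probes were not compared with each other.

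Gene expression was measured on 34 one-colour arrays, 2 for each of 17 groups, from C57BL6/j mice aged 6 to 8 weeks. Cell preparations comprised cultured wild-type Sertoli cells 24 h after retinoic acid (RA; the labels give 1 mM), cultured wild-type Sertoli cells with vehicle, Sertoli cells sorted by flow cytometry from Nanos3 knockout testes (Nanos3KO), Sertoli cells sorted from wild-type testes, and whole testes as the unsorted tissue. Tubule segments were collected at stages I-III, at IV-VI, at VII-VIII and at IX-XII. They came from testes injected 5 days earlier with a lentivirus for dnRARa, read here as a dominant negative retinoic acid receptor alpha, from testes injected with a Venus (fluorescent protein) lentivirus, and from untreated testes. The labels give neither the marker used for the sort nor the promoter or cell type of the viruses. The 2 arrays of a group are called biological duplicates in the series' design, so 2 values carry each group mean, and each p rests on the spread between such duplicates.

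Spermatogonial stem cells renew along the basement membrane of the tubule. Sertoli cells and cells outside the tubule supply GDNF, which binds GFRA1 and signals through RET, and FGF2, and both pathways raise Etv5 in germ cells. CXCL12 holds CXCR4-bearing cells in place, CSF1 acts on cells with the CSF1 receptor, and KIT ligand from Sertoli cells carries KIT-positive spermatogonia into differentiation.

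RefSeq promoters (GRCm38.p6) were available here for 9 of the 10 genes, 12 start sites in all. The 250 bases before the start are printed for the 3 ligands that fell with RA in culture, because the receptor for RA binds pairs of a short half-site. Capitals mark a half-site, searched on both strands as AGGTCA, in the variant form AGTTCA or in the variant form GGTTCA.
Gdnf, chr15:7809798-7810047, plus strand: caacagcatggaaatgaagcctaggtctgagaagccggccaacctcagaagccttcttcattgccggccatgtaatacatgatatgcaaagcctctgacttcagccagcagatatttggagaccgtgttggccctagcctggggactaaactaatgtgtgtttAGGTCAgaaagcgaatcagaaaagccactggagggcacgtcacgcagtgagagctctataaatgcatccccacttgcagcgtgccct
Cxcl12, chr6:117168285-117168534, plus strand: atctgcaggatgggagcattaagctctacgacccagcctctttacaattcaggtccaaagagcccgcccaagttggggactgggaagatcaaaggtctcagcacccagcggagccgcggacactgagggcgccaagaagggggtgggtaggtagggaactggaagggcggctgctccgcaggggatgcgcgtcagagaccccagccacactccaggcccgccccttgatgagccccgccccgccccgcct
Csf1, chr3:107760470-107760719, minus strand: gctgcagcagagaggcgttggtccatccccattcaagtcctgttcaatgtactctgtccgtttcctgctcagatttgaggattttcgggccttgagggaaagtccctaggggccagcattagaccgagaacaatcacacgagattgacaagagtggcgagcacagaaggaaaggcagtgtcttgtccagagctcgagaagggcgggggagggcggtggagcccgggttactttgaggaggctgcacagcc

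The Gdnf sequence printed holds a single AGGTCA, 87 bases before the start. The Cxcl12 and Csf1 sequences hold none of the 3 half-sites in this window. Another Gdnf start site (chr15:7813477-7813726, plus strand), not printed, holds none either. Among the 12 start sites 3 had a half-site, the others being AGTTCA in Fgf2 (209 bases before the start) and GGTTCA in Gfra1 (69 bases before it). Of 32851 mouse promoters of the same length, 30.7% held at least 1 of them and 14.0% held AGGTCA. A match of 6 letters is a description of the sequence only.

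The sorted wild-type cells carried more ligand signal than whole testes for Cxcl12, Csf1, Kitl and Fgf2, and less for Gdnf. Of the 9 members tested, 7 were higher and 2 lower in sorted wild-type cells, and in that comparison 79.1% of all 22899 genes tested passed (limma, Benjamini-Hochberg adjusted p under 0.05). Cxcl12, the chemokine ligand, stood at 3.68 and 3.56 in sorted wild-type cells, against -0.57 and -0.61 in whole testes. That was 18.5-fold higher (4.21 ± 0.21 log2 units, SE; adjusted p = 3.71e-06 by limma), and the groups did not overlap.

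Csf1, the ligand of the macrophage colony-stimulating factor receptor, stood at 1.69 and 1.95 in sorted wild-type cells, against -2.06 and -2.06 in whole testes, 14.7-fold higher (3.87 ± 0.13, SE; adjusted p = 1.49e-06 by limma). Kitl, the ligand of KIT, read -0.21 and -1.22 in sorted wild-type cells, against -2.12 and -2.17 in whole testes, a difference of 1.43 ± 0.29 (adjusted p = 0.00285 by limma). Both genes were higher in each sorted array than in each testis array, though the 2 sorted arrays were 1 unit apart for Kitl. Fgf2, a growth factor for spermatogonia, differed by 1.04 ± 0.30 (adjusted p = 0.015 by limma), with -1.58 and -2.56 in sorted wild-type cells, against -3.16 and -3.06 in whole testes. The Fgf2 call was lost in 4 of 14 alternatives, with adjusted p = 0.12 by limma at most (normexp background correction, 0.79), and the difference was 0.55 without sorted wild-type replicate 1.

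Gdnf, the ligand on which stem cell self-renewal depends, was not well above background on either sorted wild-type array. Its probe read -6.10 and -6.18 there, against -5.23 and -4.94 in whole testes, where both arrays measured it. Gdnf was at least 1.44-fold lower in sorted wild-type cells, taking the dimmest signals that the arrays detected as the bound (adjusted p = 2.27e-04 by limma). The call was lost with normexp background correction, with local background (-0.11, adjusted p = 0.66 by limma) and with none subtracted (-0.08, adjusted p = 0.634 by limma).

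The receptors went in both directions. Gfra1, the GDNF co-receptor of undifferentiated spermatogonia, read -4.92 and -6.23 in sorted wild-type cells, with only 1 of the 2 arrays well above background, against -2.41 and -2.41 in whole testes (difference -3.17 ± 0.66, adjusted p = 0.00333 by limma; -1.23 and 0.105 with normexp). Kit stood at 3.29 and 3.13 in sorted wild-type cells, against -1.55 and -1.51 in whole testes, 26.7-fold higher (4.74 ± 0.49, adjusted p = 9.08e-05 by limma). Cxcr4, the CXCL12 receptor, read -1.86 and -1.79 in sorted wild-type cells, against -3.21 and -4.16 in whole testes (1.86 ± 0.44, adjusted p = 0.00646 by limma). Of these 3 receptors Gfra1 was lower in the sorted cells, and Cxcr4 was higher, as was Kit, which Leydig cells carry as well as spermatogonia. Etv5 read -2.84 and -2.66 in sorted wild-type cells, against -4.51 and -4.95 in whole testes (1.98 ± 0.17, adjusted p = 3.86e-05 by limma). Ret, the signalling receptor for GDNF, was not well above background on any of the 34 arrays (-8.61 to -6.45) and entered no test.

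Markers of other cells moved with the sorted preparations. The summed signal of 10 Leydig markers, in multiples of the array's 75th percentile, was 2080 and 2010 in sorted wild-type cells, against 214 and 210 in whole testes, and all 10 of these markers were higher in the sorted cells. The sum of 10 endothelial markers was 41.5 and 28.5 in sorted wild-type cells, against 3.76 and 3.74 in whole testes, with 9 of 10 higher. Sertoli markers (18 genes) summed to 143 and 385 in sorted wild-type cells, against 142 and 140 in whole testes. Peritubular markers (8 genes) summed to 117 and 36.0 in sorted wild-type cells, against 35.2 and 35.1 in whole testes. Sorted replicate 1, with the larger peritubular and the smaller Sertoli sum, was also the array with the higher Kitl and Fgf2. The part of these cells in the levels of Cxcl12, Csf1, Kitl, Fgf2, Kit and Cxcr4 was not tested. More cells of a type and more RNA per cell cannot be told apart in any of these samples.

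**Figure D1:**
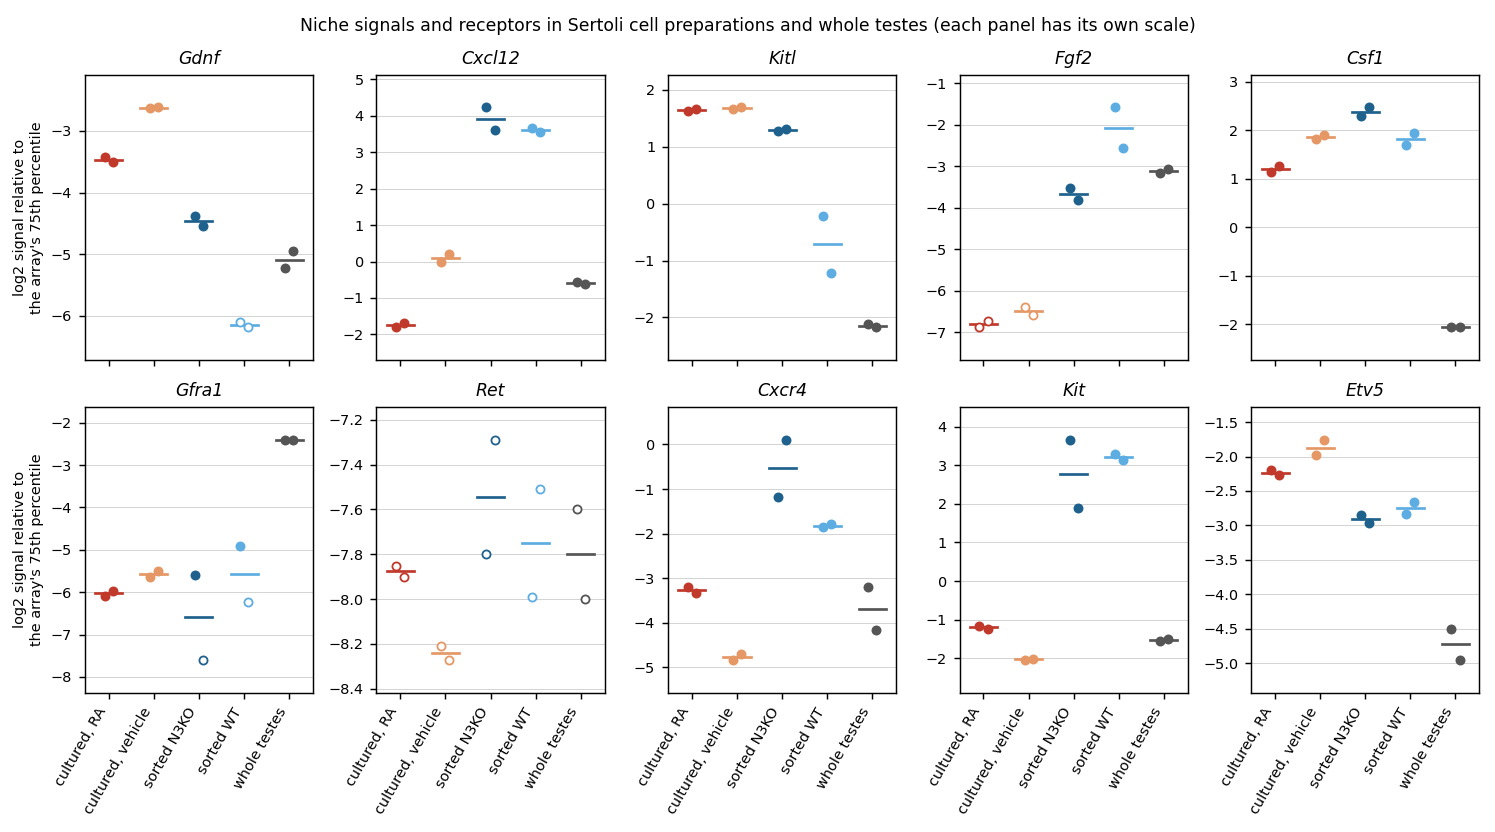
Level of each of the 10 members (vertical axis, log2 units relative to the 75th percentile of each array) in cultured RA, cultured vehicle, sorted Nanos3KO, sorted wild-type and whole-testis samples. Each point is 1 array, filled where it was well above background and open where it was not, and the bar is the mean of both arrays. Cxcl12 and Kit are higher in both sorted preparations than in culture, Gdnf is highest in culture, and Ret is open throughout.

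Sorted cells of Nanos3KO testes, which lack a germ line, differed from sorted wild-type cells in 4 of the 5 ligands. Gdnf, Kitl and Csf1 were higher and Fgf2 was lower, and of the receptors Cxcr4 was higher. Those 5 calls were made among 8 members tested, beside 48.4% of all genes tested. The targeted gene, Nanos3, was not well above background in Nanos3KO cells (-7.11 and -7.27), against -3.20 and -4.43 in sorted wild-type cells.

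Gdnf read -4.38 and -4.54 in Nanos3KO cells, against -6.10 and -6.18 in sorted wild-type cells, where it was not well above background, so it was at least 2.21-fold higher (adjusted p = 4.73e-05 by limma). Over the alternatives the smallest Gdnf difference was 0.84 log2 units, short of that bound of 1.14. Kitl read 1.27 and 1.31 in Nanos3KO cells, against -0.21 and -1.22 in sorted wild-type cells, 4.01-fold higher (SE 0.29 log2 units, adjusted p = 0.00132 by limma). Every Nanos3KO array lay above every wild-type array for both ligands. Fgf2 read -3.51 and -3.81 in Nanos3KO cells, against -1.58 and -2.56 in sorted wild-type cells (-1.59 ± 0.30, adjusted p = 0.00459 by limma). Csf1 read 2.29 and 2.47 in Nanos3KO cells, against 1.69 and 1.95 in sorted wild-type cells (0.57 ± 0.13, adjusted p = 0.01 by limma). Neither gene's groups overlapped, Fgf2 being lower and Csf1 higher in Nanos3KO cells. With normexp Fgf2 differed by -0.50 (adjusted p = 0.347 by limma), its other probe, not well above background in either group, differed by -0.06, and the Csf1 call was lost in 3 of 14 alternatives (adjusted p = 0.175 by limma at most).

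Cxcl12 gave 4.23 and 3.60 in Nanos3KO cells, against 3.68 and 3.56 in sorted wild-type cells, a difference of 0.29 that did not pass (adjusted p = 0.279 by limma). Cxcr4 read -1.17 and 0.10 in Nanos3KO cells, against -1.86 and -1.79 in sorted wild-type cells (1.29 ± 0.44, adjusted p = 0.0478 by limma). That call was lost in 7 of 14 alternatives, and without the second Nanos3KO array the difference was 0.66. Kit gave 3.66 and 1.90 in Nanos3KO cells, against 3.29 and 3.13 in sorted wild-type cells, and its difference of -0.43 (adjusted p = 0.495 by limma) was -1.31 without Nanos3KO replicate 1 and 0.45 without Nanos3KO replicate 2 (adjusted p = 0.00896 by limma). Etv5 differed by -0.16 (adjusted p = 0.463 by limma), with -2.85 and -2.97 in Nanos3KO cells, against -2.84 and -2.66 in sorted wild-type cells. Gfra1 read -5.59 and -7.59 in Nanos3KO cells and was not tested, because no group compared had both arrays well above background.

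The slide of the Nanos3KO arrays held no other group, so slide and genotype cannot be told apart in this comparison. Leydig markers summed to 1170 and 749 in Nanos3KO cells, against 2080 and 2010 in sorted wild-type cells. Macrophage markers (9 genes) summed to 31.8 and 104 in Nanos3KO cells, against 5.02 and 9.31 in sorted wild-type cells, with 8 of 9 higher, and the array with the larger macrophage sum was also the one with the higher Cxcr4 and the lower Kit. Spermatid markers summed to 0.451 and 0.543 in Nanos3KO cells, against 757 and 481 in sorted wild-type cells. Sertoli markers summed to 404 and 465 in Nanos3KO cells, against 143 and 385 in sorted wild-type cells, with 9 of 18 higher and 1 lower. The part of each of these in the ligand levels was not tested.

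Vehicle cultures were next set against sorted cells. In cultured vehicle cells Gdnf, Kitl and Etv5 were higher than in sorted wild-type cells, and Cxcl12, Fgf2, Cxcr4 and Kit were lower, 7 of the 9 members tested beside 74.7% of all genes tested. Gdnf read -2.63 and -2.62 in vehicle cultures, its highest level of all 17 groups, and was at least 7.88-fold higher than in sorted wild-type cells (adjusted p = 1.07e-06 by limma). Over the alternatives the smallest Gdnf difference was 1.26 log2 units, short of that bound of 2.98. Kitl read 1.67 and 1.69 in vehicle cultures, 2.39 above the sorted wild-type cells (adjusted p = 2.51e-04 by limma). Against sorted Nanos3KO cells Kitl differed by 0.39 (adjusted p = 0.261 by limma), while Gdnf was 3.56-fold higher in vehicle cultures (adjusted p = 2.46e-05 by limma), a call that was lost with normexp (0.28 log2 units, adjusted p = 0.241 by limma).

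Cxcl12 read -0.01 and 0.22 in vehicle cultures, 3.51 log2 units below the sorted wild-type cells (adjusted p = 8.02e-06 by limma). Kit read -2.04 and -2.03 in vehicle cultures, 37.9-fold lower than in sorted wild-type cells (adjusted p = 6.97e-05 by limma), and Cxcr4, at -4.83 and -4.71 in vehicle cultures, was 7.73-fold lower (adjusted p = 7.67e-04 by limma). For these 3 genes the cultured arrays lay below every sorted array. Fgf2 was not well above background in vehicle cultures (-6.39 and -6.59), at least 21.3-fold lower than in sorted wild-type cells (adjusted p = 1.48e-05 by limma). Over the alternatives Fgf2 differed by as little as -1.65 log2 units, short of that bound. Its other probe showed no such difference, at -6.34 and -5.97 in vehicle cultures, against -5.85 and -6.50 in sorted wild-type cells (0.02 between the means), where neither array was well above background, so the Fgf2 difference was seen with 1 probe of 2.

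Csf1 differed by 0.05 between vehicle cultures (1.82 and 1.91) and sorted wild-type cells, within the spread of the sorted pair. Etv5 was 0.88 higher in vehicle cultures, at -1.98 and -1.76 (adjusted p = 0.00278 by limma). Gfra1 in vehicle cultures read -5.63 and -5.51, a difference of 0.01 from sorted wild-type cells that did not pass. Against sorted Nanos3KO cells, 7 of 9 members passed, beside 69.2% of all genes tested, with Csf1 0.52 lower in vehicle cultures (adjusted p = 0.00899 by limma, lost in 5 of 14 alternatives). Cultured and sorted cells were on different slides and were scanned on different days, so slide, day and culture cannot be told apart. The Leydig marker sum was 15.7 and 16.3 in vehicle cultures, against 2080 and 2010 in sorted wild-type cells, and the endothelial sum was 1.40 and 1.43, against 41.5 and 28.5. Sertoli markers summed to 529 and 509 in vehicle cultures, above both sorted wild-type arrays.

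**Figure D2:**
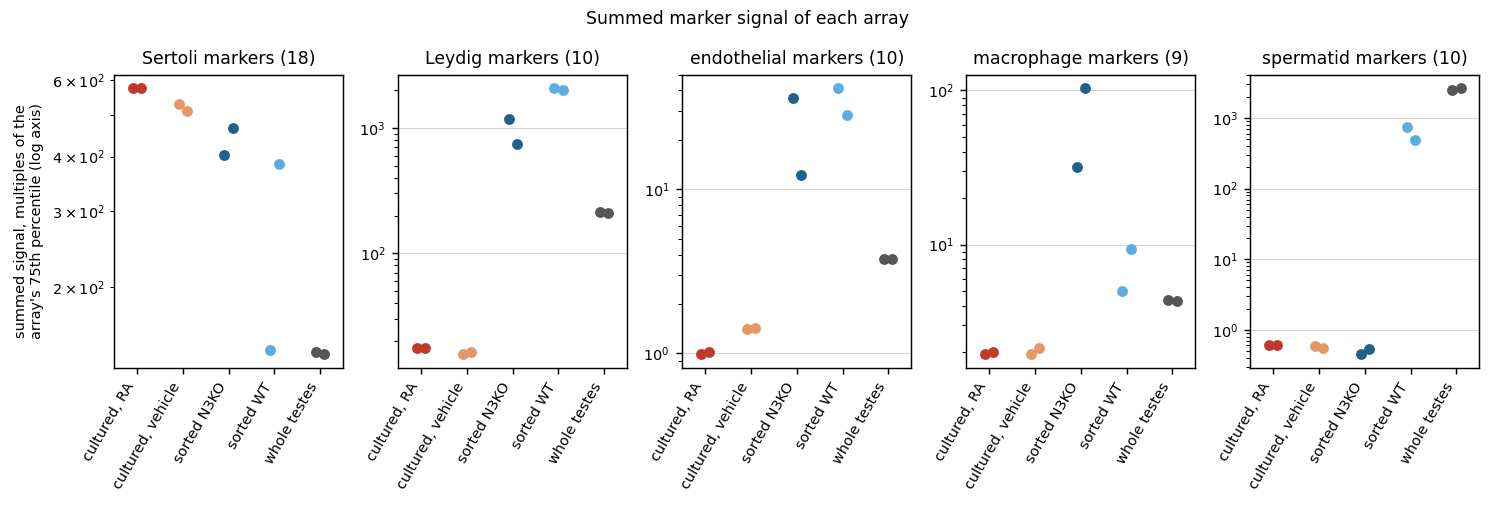
Summed signal of marker genes on each array (vertical log axis, in multiples of the array's 75th percentile) for 5 lists of cell type markers. Leydig signal is 15.7 and 16.3 in vehicle cultures, against 2080 and 2010 in sorted wild-type cells, and macrophage signal is largest in the second Nanos3KO array, at 104.

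RA lowered 3 of the 5 ligands in culture, Cxcl12, Gdnf and Csf1, and no receptor passed the test. The 3 calls were made among 8 members tested, beside 5.47% of all genes tested. Cxcl12 read -1.80 and -1.68 with RA, against -0.01 and 0.22 with vehicle, 3.59-fold lower (-1.84 ± 0.20, adjusted p = 0.00348 by limma). The other Cxcl12 probe read -4.24 and -4.24 with RA, against -2.29 and -2.11 with vehicle. On both probes each RA array lay below each vehicle array.

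Gdnf read -3.42 and -3.51 with RA, against -2.63 and -2.62 with vehicle (-0.84 ± 0.13, adjusted p = 0.0118 by limma). Csf1 read 1.14 and 1.26 with RA, against 1.82 and 1.91 with vehicle (-0.66 ± 0.13, adjusted p = 0.0288 by limma). The arrays of each pair stood close together, and the groups did not overlap for either gene. With any 1 of the 4 cultured arrays left out, Cxcl12 alone passed, and the adjusted p for Gdnf was 0.0857 to 0.118. Over all alternatives the Csf1 call was lost in 8 of 14 and the Gdnf call in 6 of 14. All 4 cultured arrays shared a slide and a scan day. Markers of undifferentiated spermatogonia (14 genes) summed to 94.5 and 94.6 with RA, against 39.5 and 38.9 with vehicle. Those of differentiating spermatogonia (5 genes) summed to 18.0 and 16.9 with RA, against 3.23 and 3.40 with vehicle. Of the 14 undifferentiated markers, 12 and 11 were well above background with RA, against 12 and 12 with vehicle. Either sum can be carried by 1 bright gene, so neither is read as an amount of spermatogonia. Spermatid markers summed to 0.612 and 0.609 with RA, against 0.598 and 0.549 with vehicle. The part of these in the ligand levels was not tested.

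Kitl read 1.62 and 1.66 with RA, against 1.67 and 1.69 with vehicle, a difference of -0.04 (SE 0.28, adjusted p = 0.978 by limma). Its other probe was lower with RA, at -3.30 and -3.30 with RA, against -2.73 and -2.76 with vehicle. Fgf2 was not well above background in either cultured group and was not tested. Cxcr4 read -3.20 and -3.33 with RA, against -4.83 and -4.71 with vehicle, 1.51 ± 0.44 higher, a difference that did not pass (adjusted p = 0.115 by limma). The groups were apart by more than 1 unit, and Cxcr4 passed when only the 4 cultured arrays were fitted (adjusted p = 0.00158 by limma). The other Cxcr4 probe read -3.94 and -4.26 with RA, against -5.94 and -5.35 with vehicle. Kit read -1.16 and -1.24 with RA, against -2.04 and -2.03 with vehicle (0.84 ± 0.48, adjusted p = 0.462 by limma), and it too passed in the fit of those 4 arrays (adjusted p = 0.00202 by limma). The spread that the main test used for both receptors included the sorted Nanos3KO pair, whose 2 arrays were more than 1 unit apart. Etv5 differed by -0.37 (adjusted p = 0.327 by limma), at -2.20 and -2.27 with RA, against -1.98 and -1.76 with vehicle. Gfra1, at -6.08 and -5.98 with RA, against -5.63 and -5.51 with vehicle, did not pass (-0.46, adjusted p = 0.824 by limma). It passed, however, in the fit of the 4 cultured arrays (adjusted p = 0.0142 by limma).

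Partners of the same pathways were listed beside the members. In the list of CXCL12 and CSF1 partners, 1 of 3 tested genes rose with RA: Il34, the second ligand of the CSF1 receptor, stood at 1.54 and 1.53 with RA, against -0.84 and -0.79 with vehicle (2.35 ± 0.32, adjusted p = 0.00735 by limma). Il34 and Csf1, ligands of 1 receptor, thus moved in opposite directions with RA. In the list of FGF ligands, receptors and feedback genes, 1 of 13 rose and 1 fell. Fgfr4, an FGF receptor, stood at 1.91 and 1.95 with RA, against -1.19 and -1.02 with vehicle (3.03 higher), and Etv1, a transcription factor of the same family as Etv5, fell by 1.37 with RA (adjusted p = 0.0067 by limma). Among 5 tested genes of the GDNF family 1 rose (Gdf15, 0.97) and 1 fell (Nrtn, which encodes neurturin, -0.75). Of 13 other niche ligands 1 rose (Cx3cl1, 0.64) and 1 fell (Wnt6, -0.80). The medians of these 4 lists were 1.93, 0.04, 0.47 and -0.00, beside 0.01 over all genes tested.

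**Figure D3:**
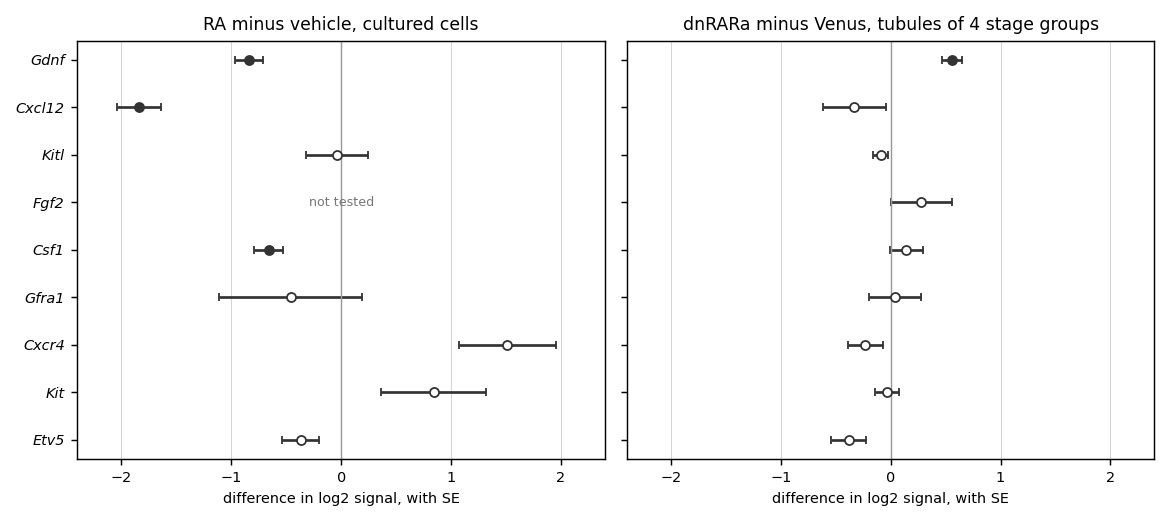
Difference of each member in log2 units (horizontal axis, bars are SE) for RA minus vehicle in culture and for dnRARa minus Venus averaged over the 4 stage groups. Filled points passed an adjusted p of 0.05 over all genes. Gdnf is -0.84 with RA and 0.56 with dnRARa, and Fgf2 was not tested in culture.

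In untreated tubules, separated from the interstitium, Csf1 and Cxcl12 were lower than in whole testes. The test passed for 4 of the 9 members, beside 52.8% of all genes tested, but the other two, Gdnf and Fgf2, were mostly not above background in tubules and are given as measured only. Csf1 ranged over the 8 untreated tubule arrays from -3.56 to -2.80 (median -3.12), against -2.06 and -2.06 in whole testes (-1.12 ± 0.21, adjusted p = 2.53e-04 by limma). Cxcl12 ranged from -3.04 to -1.45 (median -2.06) in untreated tubules, against -0.57 and -0.61 in whole testes (-1.57 ± 0.40, adjusted p = 0.00282 by limma). No tubule array reached a testis array for either ligand. With normexp the Csf1 difference was -0.33 (adjusted p = 0.251 by limma). Untreated tubules and whole testes were on different slides and were scanned on different days, so slide, day and preparation cannot be told apart.

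Cxcl12 in untreated tubules also split by replicate number. From the earliest to the latest stage group it read -3.04, -2.97, -2.45 and -2.60 in the replicate 1 arrays, and -1.66, -1.45, -1.54 and -1.61 in the replicate 2 arrays. Leydig markers summed to 12.9 to 20.2 in those replicate 1 arrays and to 30.2 to 39.4 in the replicate 2 arrays. Their part in the Cxcl12 level was not tested. Fgf2 was well above background on 1 of 8 untreated tubule arrays, so its difference of -1.82 from whole testes is a measured value only (adjusted p = 0.00102 by limma). It was -0.20 with normexp (adjusted p = 0.701 by limma), and the other Fgf2 probe, detected in neither, differed by 0.74. Gdnf was not well above background on any of those 8 (-7.20 to -6.33), and the dimmest signal detected there exceeded its level in whole testes, so no fold is given. The Gdnf difference, -1.54 as measured, was 0.34 with normexp background correction.

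Along the cycle of the seminiferous epithelium, Kitl, Kit and Etv5 differed between the stage groups of untreated tubules, 3 members beside 69.1% of all genes tested (moderated F over the 4 stage groups). Cxcl12, Csf1, Gfra1 and Cxcr4 were tested there and did not pass, and Gdnf, Fgf2 and Ret were not tested. Kitl read -1.92 and -1.76 at I-III, -1.83 and -1.92 at IV-VI, -3.04 and -3.19 at VII-VIII, and -2.16 and -2.30 at IX-XII (range of group means 1.28, adjusted p = 5.89e-06 by limma). The VII-VIII arrays lay below all others. Kitl was 2.36-fold lower at VII-VIII than at IV-VI (-1.24 ± 0.14, adjusted p = 9.49e-06 by limma; 42.3% of all genes tested passed in that step), then 0.89 ± 0.14 higher at IX-XII than at VII-VIII (adjusted p = 1.13e-04 by limma; 49.7% of all genes tested). At I-III it was 0.39 ± 0.14 above IX-XII (adjusted p = 0.0419 by limma; 34.6% of all genes tested), a call lost in 9 of 16 alternatives and turned to -0.07 with normexp background correction. With normexp the range was 0.36 (adjusted p = 0.616 by limma), the step into VII-VIII -0.36 (adjusted p = 0.426) and the step out of it 0.10 (adjusted p = 0.8), so each Kitl call in untreated tubules was lost there. VII-VIII and IX-XII shared a slide, while I-III and IV-VI each had a slide of their own.

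Kitl was also lowest at VII-VIII in both virus arms. Kitl in Venus tubules read -1.82 and -1.71 at I-III, -1.82 and -1.56 at IV-VI, -2.81 and -2.65 at VII-VIII, and -2.15 and -2.12 at IX-XII (range 1.04, adjusted p = 8.36e-05 by limma). In dnRARa tubules it read -1.58 and -1.72, -1.88 and -2.22, -2.70 and -3.05, and -2.11 and -2.07 in the same order (range 1.22, adjusted p = 3.84e-05 by limma). With normexp the range was 0.88 in Venus tubules (adjusted p = 0.0855 by limma) and 0.92 in dnRARa tubules (adjusted p = 0.109 by limma), neither past the threshold. Stage calls numbered 4 of the members in Venus tubules, beside 53.9% of all genes tested, and 3 in dnRARa tubules, beside 55%. In both virus arms every member but Ret was tested.

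Etv5 had the widest stage range. In untreated tubules it read -3.50 and -3.47 at I-III, -4.43 and -4.30 at IV-VI, -6.45 and -6.69 at VII-VIII, where neither array was well above background, and -3.52 and -4.13 at IX-XII (range 3.09, adjusted p = 3.93e-06 by limma). Etv5 at VII-VIII was at least 1.70-fold lower than at IV-VI (-2.21 ± 0.32 as measured, adjusted p = 6.84e-05 by limma). With normexp background correction that step was 0.15 (adjusted p = 0.859), and -0.06 when no local background was subtracted (adjusted p = 0.861), both by limma, so the call depended on the background correction of a dim probe. In Venus tubules Etv5 was measured on all 8 arrays, at -3.29 and -3.04, -3.42 and -3.26, -5.31 and -5.66, and -3.62 and -3.27 in stage order (range 2.32, adjusted p = 6.12e-05 by limma). In dnRARa tubules it read -2.87 and -3.43, -3.92 and -5.16, -5.57 and -5.83, and -3.40 and -3.71 (range 2.55, adjusted p = 3.86e-05 by limma). VII-VIII was lowest in all 3 arms. With normexp no arm passed, with ranges of 1.01 in untreated (adjusted p = 0.148), 1.42 in Venus (adjusted p = 0.0793) and 1.12 in dnRARa tubules (adjusted p = 0.232), all by limma. The other Etv5 probe had a shallower dip in Venus tubules, at -4.38 and -4.65 at VII-VIII, against -3.68 and -3.45 at IV-VI. In dnRARa tubules that probe overlapped between these stages, at -4.74 and -4.14 at VII-VIII, against -4.29 and -4.38 at IV-VI. In untreated tubules it differed by -0.13 at this step, where no array of either group was well above background.

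Kit in untreated tubules read -1.79 and -1.61 at I-III, -1.54 and -1.08 at IV-VI, -1.44 and -1.34 at VII-VIII, and -1.99 and -2.43 at IX-XII (range 0.90, adjusted p = 0.00514 by limma). It was 0.82 ± 0.21 lower at IX-XII than at VII-VIII (adjusted p = 0.00427 by limma). Of the members, Kit and Kitl passed at that step, in opposite directions, and Etv5 was not tested there because no group compared had both arrays well above background. The step into VII-VIII had 2 calls, Kitl and Etv5, and none was made for IV-VI minus I-III, where 22.3% of all genes tested passed. With the replicate number as a block common to all arms, 2 more steps passed: Etv5 at IV-VI minus I-III (-0.88, adjusted p = 0.0394 by limma, and 0.0585 without the block) and Kit at I-III minus IX-XII (0.51, adjusted p = 0.034 by limma, and 0.0683 without the block). With a block of its own for the untreated and for the dnRARa arm, chosen after seeing the data, that Etv5 step passed (adjusted p = 0.0113 by limma; 33.4% of all genes tested) and that Kit step did not (adjusted p = 0.0594 by limma; 46% of all genes tested). The Kit step into IX-XII was lost in 3 of 16 alternatives and the Kit range in 2 of 20 (adjusted p = 0.0584 and 0.0815 by limma at most).

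Gfra1 was highest at VII-VIII in each arm. In Venus tubules it read -3.50 and -3.26 at I-III, -3.32 and -2.89 at IV-VI, -1.79 and -1.71 at VII-VIII, and -2.86 and -2.42 at IX-XII (range 1.63, adjusted p = 0.0391 by limma). That call was lost in 14 of 20 alternatives, where the range fell to 0.54 with the mean of both probes (adjusted p = 0.724 by limma). In dnRARa tubules it read -3.32 and -3.44, -2.73 and -2.71, -1.82 and -1.86, and -2.88 and -2.68 (range 1.54, adjusted p = 0.0726 by limma). In untreated tubules the replicate 1 and 2 arrays were over 1 unit apart at every stage, with -1.54 and -2.72 at VII-VIII, and Gfra1 did not pass without a block (adjusted p = 0.179 by limma). Between arrays of the same number, VII-VIII lay above I-III by 1.09 and 1.07, above IV-VI by 0.36 and 0.41, and above IX-XII by 0.80 and 0.89. With the block within arms the untreated range of 1.08 passed (adjusted p = 1.40e-04 by limma, beside 79.8% of all genes tested), as did the dnRARa range (adjusted p = 2.54e-05 by limma, beside 64.9%). Of the steps, IV-VI minus I-III (0.70, adjusted p = 0.00437; 33.4% of all genes tested) and IX-XII minus VII-VIII (-0.84, adjusted p = 4.15e-04; 58.8%) then passed, and VII-VIII minus IV-VI (0.38, adjusted p = 0.0532; 52.3%) did not, all by limma. The other Gfra1 probe showed no peak in Venus tubules, where VII-VIII read -4.74 and -4.77, against -4.40 and -4.39 at IV-VI. Gdnf passed in both virus arms, lowest at VII-VIII, with a range of group means of 0.93 in Venus tubules (adjusted p = 0.00208 by limma) and of 0.76 in dnRARa tubules (adjusted p = 0.00752 by limma). Both Gdnf calls were lost with quantile scaling and with either form of normexp. Cxcl12, Csf1 and Cxcr4 made no stage call in any of the 3 arms, though Cxcr4 passed in untreated tubules with the block within arms (range 1.02, adjusted p = 0.0421 by limma).

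Summed spermatogonial markers differed between the same stage groups. The sum of 14 markers of undifferentiated spermatogonia in untreated tubules was 31.4 and 32.3 at VII-VIII, against 19.1 in the higher of the IV-VI arrays, with 2 of 11 tested higher and 2 lower. At IX-XII it was 32.4 and 36.1. That sum was also 94.5 and 94.6 in cultured RA cells and 37.5 and 23.8 in Nanos3KO cells. It is thus not a measure of spermatogonia alone. The sum of 5 markers of differentiating spermatogonia was 45.4 and 49.8 at VII-VIII, against 4.04 and 3.70 at IV-VI, with 1 higher (Stra8, a gene induced by RA in germ cells) and 3 lower. Their part in the levels of Gfra1, Kit, Kitl and Etv5 was not tested.

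Pathway partners were read at the step into VII-VIII, where 22.4% of all genes tested were higher and 19.9% lower. Ackr3, the scavenging receptor for CXCL12, was 1.74 ± 0.15 higher at VII-VIII than at IV-VI in untreated tubules (adjusted p = 8.70e-07 by limma). It read -0.86 and -0.61 at VII-VIII, against -2.61 and -2.34 at IV-VI, and the 2 other genes of its list gave 1 lower call and no call. Of the FGF list 3 of 9 rose and 4 fell at that step, among them Etv1, which fell by 1.83. Of the GDNF family 3 of 6 rose and 1 fell: Gfra2, the neurturin co-receptor, was 1.79 higher and Gdf15 fell by 4.13. Of the GDNF-responsive spermatogonial genes 2 of 7 rose and 1 fell, where Lhx1 was 2.20 higher and Pou3f1 fell by 1.79. The 3 of 7 calls in that list stand beside 42.3% of all genes tested. The medians of the FGF, GDNF family and GDNF-responsive lists were -0.29, 0.28 and 0.04, beside 0.04 over all genes tested.

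**Figure D4:**
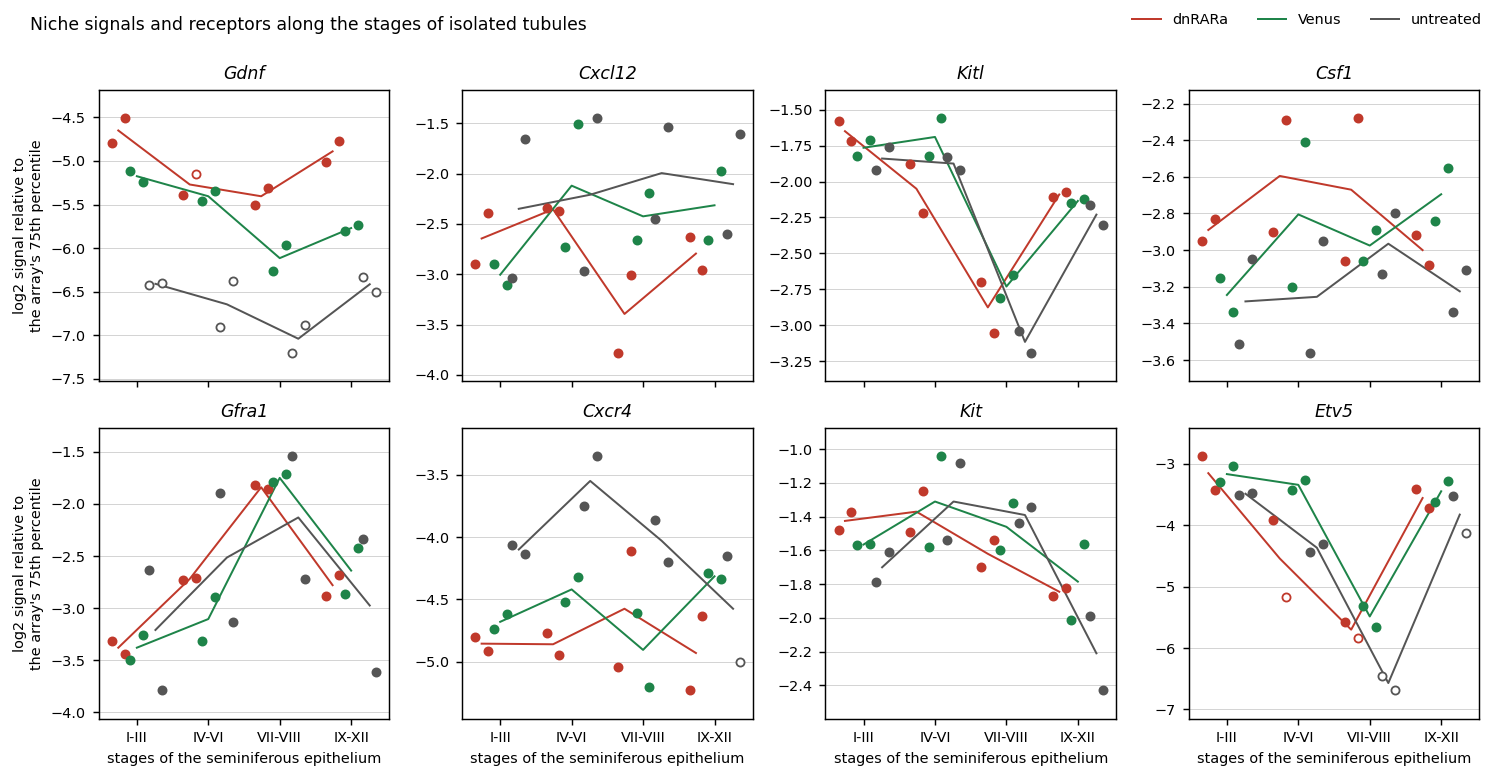
Level of 8 members (vertical axis, log2 units relative to the 75th percentile of each array) in the 4 stage groups of dnRARa, Venus and untreated tubules. Points are single arrays, and lines join the means of both arrays. Kitl and Etv5 are lowest at VII-VIII in all 3 arms, and Gdnf is higher in dnRARa than in Venus tubules in each stage group.

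With dnRARa, Gdnf was the only member of the 9 tested to pass against Venus over the 4 stage groups, beside 12.3% of all genes tested. Gdnf read -4.79 and -4.51 in dnRARa tubules, against -5.11 and -5.24 in Venus tubules, at I-III. At IV-VI the values were -5.39 and -5.15 in dnRARa tubules, against -5.46 and -5.35 in Venus tubules, and at VII-VIII -5.50 and -5.31 in dnRARa tubules, against -6.26 and -5.97 in Venus tubules. At IX-XII they were -5.01 and -4.77 in dnRARa tubules, against -5.80 and -5.74 in Venus tubules. The mean was higher with dnRARa in 4 of 4 stage groups, and the arrays overlapped at IV-VI alone.

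Over the stages Gdnf was 1.48-fold higher in dnRARa tubules (0.56 ± 0.09, SE; adjusted p = 0.00105 by limma). Within stages it passed at IX-XII (0.88 ± 0.18, adjusted p = 0.0116 by limma), where 4.69% of all genes tested passed. The difference was 0.71 at VII-VIII (adjusted p = 0.0738), 0.53 at I-III (adjusted p = 0.458) and 0.13 at IV-VI (adjusted p = 0.767), all by limma and none past the threshold. At VII-VIII 1.54%, at I-III 0.00896% and at IV-VI 3.33% of all genes tested passed, and no member did. A test of whether the dnRARa difference varied with stage called no member (Gdnf adjusted p = 0.531 by limma), beside 0.746% of all genes tested.

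The Gdnf probe was dim in all tubules, well above background on 7 of 8 dnRARa arrays, on 8 of 8 Venus arrays and on 0 of 8 untreated arrays. The dnRARa and Venus arrays lay on separate slides, which pair by scan day and replicate number. The 4 stage groups of an arm shared its slides, so slide and dnRARa cannot be told apart. Within scan day 4 (replicate 1) the Gdnf difference was 0.48 (adjusted p = 0.195 by limma), and within scan day 5 (replicate 2) it was 0.64 (adjusted p = 0.0808 by limma). It was 0.46 with quantile scaling (adjusted p = 0.235 by limma), so the call depended on the scaling and on pooling both days. With normexp background correction the difference over stages was 0.01 and that at IX-XII -0.55, and with no local background subtracted they were 0.14 and 0.10, none past the threshold. Peritubular markers (8 genes) summed to 26.9 to 49.1 over dnRARa arrays, against 35.4 to 56.1 over Venus arrays, with 5 of 8 lower in dnRARa tubules, and their part in the Gdnf level was not tested. The sums of Sertoli markers overlapped, at 138 to 194 in dnRARa tubules, against 129 to 195 in Venus tubules.

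Of the other ligands, Cxcl12 (-0.33, adjusted p = 0.509 by limma), Kitl (-0.09, adjusted p = 0.502), Fgf2 (0.28, adjusted p = 0.582) and Csf1 (0.14, adjusted p = 0.613) did not pass against Venus. Cxcl12 and Csf1, which fell with RA in culture, made no call with dnRARa at any stage. The other Kitl probe differed by -0.74 over stages, against -0.09 for the probe used. Etv5 differed by -0.38 (adjusted p = 0.152 by limma), most at IV-VI, with -3.92 and -5.16 in dnRARa tubules, against -3.42 and -3.26 in Venus tubules (-1.20 ± 0.32, adjusted p = 0.0575 by limma). Gfra1, Cxcr4 and Kit differed by 0.04, -0.23 and -0.03 and did not pass. Partners past the threshold over stages included Spry2, a feedback inhibitor of FGF signalling (0.83 higher, 1 of 13 in its list, adjusted p = 0.0158 by limma), and Gdf15 (0.94 higher). Mycn, of the GDNF-responsive list, was 0.26 lower in dnRARa tubules.

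Members were also compared between Venus and untreated tubules. Against untreated tubules the test passed for 5 of 9 members, beside 67% of all genes tested: Kitl and Etv5 were higher and Cxcr4 lower in Venus tubules, and Gdnf and Fgf2 passed as measured, on untreated arrays that mostly did not detect them. Fgf2 ranged from -7.17 to -6.05 in Venus tubules, where 6 of 8 arrays were well above background, against -6.06 to -3.79 in untreated tubules, where 1 of 8 was. An undetected signal was thus the larger one, the dimmest detected signal being as high as -4.44 on an untreated array, and the other Fgf2 probe differed by 0.92, so no direction is given for Fgf2. Gdnf ranged from -6.26 to -5.11 in Venus tubules, against -7.20 to -6.33 in untreated tubules, where no array was well above background, and no fold is given since the dimmest signal detected on the untreated arrays was above its Venus level. Etv5 was 0.70 ± 0.16 higher in Venus tubules (adjusted p = 0.00147 by limma), with a range of -5.66 to -3.04, against -6.69 to -3.47 in untreated tubules. It was well above background on 8 of 8 Venus arrays and on 5 of 8 untreated arrays, with neither untreated VII-VIII array among them. Cxcr4 was lower by 0.51 ± 0.16 in Venus tubules (-0.51, adjusted p = 0.0102 by limma) and Kitl 0.18 ± 0.07 higher (adjusted p = 0.036 by limma), a call lost in 11 of 28 alternatives and turned in 1. These arms were scanned on different days and slides, so virus, slide and day cannot be told apart. With normexp background correction the differences of Gdnf, Etv5 and Kitl were -0.67, -0.59 and -0.24, and the mean of both Cxcr4 probes differed by 0.16.

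Across all 34 arrays, the genes closest to each member in pattern were named by Pearson's r among 13009 genes with a symbol. Csf1 was closest to Fam3a and Ctps2 (0.99 each), Cxcl12 to Pon3 and Tmem35a (0.98 each), Kitl to Pald1 and Spin1 (0.97 each), and Kit to Aox1 (0.97) and Prodh (0.96). Gfra1 was closest to Fbxo44 and Akirin1 (0.96 each), Cxcr4 to Sh3bp1 and Ogn (0.93 each), Etv5 to Nrbf2 (0.93) and Fkbp14 (0.92), Gdnf to Srpk3 and Chst3 (0.92 each), and Fgf2 to AY036118 (0.91) and Atp5b (0.90). These values describe 34 arrays that fall into few preparations and share slides, and they carry no test. Over the 17 groups, Cxcl12, Csf1 and Cxcr4 were highest in sorted Nanos3KO cells, Kit and Fgf2 in sorted wild-type cells, Gdnf, Kitl and Etv5 in vehicle cultures, and Gfra1 in Venus tubules at VII-VIII. For Kit and for Cxcl12 the arrays of the highest group overlapped those of the next, which was the other sorted preparation, and the remaining 7 detected members had a highest group apart from the next. For Gfra1, however, an untreated array at VII-VIII read -1.54, above both arrays of its highest group (-1.79 and -1.71). For Kitl the margin was small, with 1.67 in the lower vehicle array, against 1.66 in the higher RA array.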

How the data were processed

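Total RNA was amplified linearly, labelled with Cy3 and hybridised to one-colour Agilent mouse arrays, per the labels' protocols. Spots were read with Agilent Feature Extraction 9.5.3.1, per the file headers, and the deposited values used here are the authors' processed intensity per spot, after the scanner software's background handling. The deposited well-above-background and outlier calls, values of another kind, decided detection and spot exclusion. The deposited series table held the same processed intensities (ratio 1.0 to the scanner values).

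Of 45018 spots, 1639 controls and 32 to 274 outlier spots per array were left out. Probes (41174) were averaged over spots and named through RefSeq accessions (22951), a symbol or synonym (67) or left under their own name (18156). Values were log2 of the intensity minus the array's 75th percentile. Arrays had 54.89 to 74.42% of probes well above background, and 2 arrays per group limit the precision. A gene was tested where both arrays of at least 1 group compared were well above background.

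limma 3.58.1 (R 4.3.3) was fitted on the 10 cell and testis arrays, on the 24 tubule arrays and, for tubules against testes, on all 34, with Benjamini-Hochberg adjustment within each comparison over all genes tested. The fit was tested on simulated data. "At least" folds compare the bright group with the dimmest detected signal of the dim arrays. They are bounds for the values as processed in the main fit, not under other background corrections. Members and gene lists were chosen with earlier results of these data known. Beside the members, at most 3 genes per list and comparison were named, those with the smallest adjusted p past 0.05, and the 2 genes closest in pattern. The replicate differences of same-numbered arrays correlated over genes by 0.23 to 0.59 between untreated stage groups and by 0.27 to 0.50 between dnRARa stage groups, so the numbers pair the stage groups there. They correlated by -0.08 to 0.03 between dnRARa and Venus at the same stage. Alternatives covered scaling, normexp background correction (offset 50), the detection filter, the choice of probe, the arrays fitted, blocks and leaving out each array. Normexp with no local background subtracted was added after the data were seen, because 28.4 and 34.3% of local background values on 2 slides (Nanos3KO, and untreated VII-VIII with IX-XII) were 0. A replicate block of its own for the untreated and for the dnRARa arm was also added after the data were seen. Titles of 1 stage group read VI-VIII where the source names read VII-VIII, which is used here.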

Additional observations from a re-analysis of the deposited data

How the results depend on the processing

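Over all alternatives, 2850 member values kept their side of the threshold, 107 lost the call, 53 gained one, and 10 changed sign as a call (8 called as reported, 2 called under the alternative). Of 1502 values of differences not called as reported, 118 had the opposite sign, those 2 among them. The counts of member calls moved by over 1.5 times as follows. With normexp, 2 members were called for Nanos3KO cells, 1 for RA, 1 for tubules against testes, and 0 each for stage in Venus, stage in dnRARa, dnRARa over stages and dnRARa within stages. With no local background subtracted (an alternative chosen after seeing the data) the counts were 3 for the untreated stage steps, 0 for dnRARa over and within stages, and 2 for Venus against untreated. With only the arrays compared they were 2 for Nanos3KO cells, 6 for RA and 3 for the stage steps. With detection required on every array they were 2 for tubules against testes, 1 for stage in dnRARa, 0 for dnRARa over stages and 1 for Venus against untreated. Quantile scaling gave 2 for stage in Venus and 0 for dnRARa over and within stages. The mean of detected probes gave 2 for dnRARa over stages and 3 within stages, and 1 model for all arrays gave 3 within stages. Within scan day 4 and within scan day 5 the dnRARa count over stages was 0 each. Leaving out 1 array gave 1 for RA in each case, 1 to 2 over stages and 0 to 2 within stages for dnRARa, and 9 stage steps at most (without untreated IX-XII replicate 1).

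The called values that changed direction were Etv5 -0.59, Gdnf -0.67 and Kitl -0.24 (Venus against untreated, normexp), Gdnf -0.55 (dnRARa at IX-XII, normexp), Kitl -0.07 (I-III minus IX-XII, normexp), Etv5 0.15 (VII-VIII minus IV-VI, normexp), Gdnf 0.34 (tubules minus testes, normexp), Cxcr4 0.16 and Gfra1 0.71 (Venus against untreated, mean of probes) and Kit 0.45 (without Nanos3KO replicate 2; -1.31 without replicate 1). None of the 7 under normexp changed direction when no local background was subtracted, though dim probes then differed less, and the cause was not tested. Sorted against testes and both culture comparisons kept their counts within 1.5 times throughout.

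A replicate block within the untreated and within the dnRARa arm (chosen after seeing the data) gave 5 members with a stage difference in untreated tubules, 4 in dnRARa tubules and 8 stage steps. The common replicate block and the scan-day block each raised the member count within stages for dnRARa to 3 (Etv5 at IV-VI -1.20, adjusted p = 0.0366 by limma; Gdnf at VII-VIII 0.71, adjusted p = 0.0216 by limma, with the replicate number). Cxcr4 in Nanos3KO cells had an adjusted p of 0.0698 by limma with that block. Beside these and the 2 untreated steps named above, the common replicate block changed no call of a member.

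Counts over all genes moved from 1098 to between 376 and 7186 for RA, from 10389 to 4151 for Nanos3KO with only the arrays compared, from 4141 to 0 for IV-VI minus I-III with only those arrays, from 2959 to between 153 and 4643 for dnRARa over stages, and from 180 to between 40 and 733 for the interaction. Within stages they moved from 2 to between 0 and 265 at I-III, from 745 to as few as 1 at IV-VI, from 355 to between 0 and 554 at VII-VIII and from 1083 to as few as 265 at IX-XII. Normexp gave 6983 (11389) for tubules against testes, 8204 (12714) and 8563 (12881) for stage in Venus and dnRARa, 6964 for IV-VI minus I-III and 3908 (8119) for the next step. Fitting only the arrays compared gave 4437 (9385) for IX-XII minus VII-VIII and 0 (6301) for I-III minus IX-XII. With no detection filter Venus against untreated gave 23838 (15890). Median scaling moved the median of all genes to 0.63 for Nanos3KO against wild type (0.06 as reported) and to 0.70 for vehicle against wild type (-0.22). The share of calls that were higher was then 76.9% (52.9%) and 66% (42.5%). For other comparisons that share was, as reported and under the scalings or normexp that moved it by over 10 points, 52.9% against 64.5% (quantile) and 63.6% (normexp) for Nanos3KO, 42.5% against 53.5% (quantile) for vehicle against wild type, 48.7% against 62.2% (median) for vehicle against Nanos3KO, 32.3% against 45.6%, 60.5% and 47.7% for tubules against testes, 52.5% against 33.9% (median) and 68.3% (normexp) for IV-VI minus I-III, 49.9% against 60.4% (median) for IX-XII minus VII-VIII, 43.6% against 31.4% (normexp) for I-III minus IX-XII, 67.5% against 56.6%, 53.6% and 57% for dnRARa over stages, and, with normexp, 48.2% against 25.4% for dnRARa at VII-VIII, 67.4% against 51.3% at IX-XII and 54.3% against 30.2% for Venus against untreated. No called difference of a member changed direction under quantile or median scaling.

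With quantile scaling 9 of 10 members and with median scaling 9 had the same highest group among 17. Of the 6 members with another probe, 4 had the same highest group with it, and Fgf2 and Gfra1 did not.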
